A study of Arabidopsis thaliana with 8 samples.

Results

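TSPO (AT2G47770) and AT2G47780 are neighbouring genes of Arabidopsis thaliana, with no other gene of the RefSeq gene table between them. They were selected on these data, because both were among the largest rises after treatment with abscisic acid (ABA), in overexpression plants as well as in wild type. The values that chose them are therefore given as a description, with no test. The array carries 3 probes for the pair, 2 for TSPO and 1 for AT2G47780, of 43603 gene probes in all, and the pair is 2 of 25410 locus tags that could be matched to probes. All 3 probes passed the filter on dim signals. Since the filter can be met through the bright groups alone, passing it is no result.

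ABA is the plant hormone of drought and salt stress. It binds receptors that block PP2C phosphatases, which frees SnRK2 kinases to activate bZIP transcription factors at ABA-responsive elements of target promoters. TSPO, annotated in RefSeq as an outer membrane tryptophan-rich sensory protein-related gene, belongs to an ancient family of membrane proteins that bind tetrapyrroles such as haem. In Arabidopsis it is known as a protein of the secretory pathway that is made under osmotic stress or ABA, is degraded by autophagy, and takes the plasma membrane aquaporin PIP2;7 with it. The table gives AT2G47780 neither a symbol nor a function, so no role is stated for it.

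RNA came from 4 groups of 2 arrays each, 8 arrays in all. The OE groups were plants of T3 homozygous lines overexpressing ThbZIP1, a bZIP transcription factor of the tamarisk Tamarix hispida, and the WT groups were Columbia wild type. Both genotypes were 4 weeks old and were given either 10 µM ABA or water for 3 h, and whole plants, root and shoot together, were pooled within a treatment before RNA was extracted. Seedlings were thus pooled, the labels do not say how many lines were pooled or what promoter drove the transgene, and the transgene's own transcript was not analysed here. Another label field names other lines for these same arrays and was not used for the grouping. Whether the 2 arrays of a group held separate plants rests on the methods, which call them biological replications.

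Signals are given as log2 of the background-subtracted intensity minus the 75th percentile of the same array, so that 0 stands for a spot as bright as the upper quartile. The 75th percentile lay between 1089 and 1703 intensity units, 68.0% to 72.1% of the gene probes were well above background on an array, none was saturated, and r between both arrays of 1 group was 0.971 to 0.985. All 4 OE arrays were on 1 slide and were scanned on 1 day with 1 version of the array design file, whereas the WT arrays were scanned on another day with another version, so genotype and scan day cannot be told apart. Within WT, the water arrays shared a slide and each ABA array was on a slide of its own. The first WT water array had 1148 outlier spots, against 6 to 24 on the others. The shoot markers, which include light-harvesting and Rubisco genes, were above background wherever they had a value, and none of the 5 was called between ABA and water or between genotypes. The summed level of the 4 with a value on every array was 639.5 to 772.0 in OE ABA, 781.8 to 869.6 in OE water, 725.7 to 757.4 in WT ABA and 859.4 to 894.3 in WT water, in multiples of the 75th percentile. The labelled tissue, whole plants, also had root markers, of which 4 of 5 could be tested. Their summed level was 0.192 to 0.203 in OE ABA, 0.198 to 0.356 in OE water, 0.308 to 0.326 in WT ABA and 0.335 to 0.600 in WT water. The root hair gene COBL9, named SHV2 in the table, was well above background in OE water alone. Bounds below set arrays that were not well above background to a floor described further on, and no bound was tested. In OE, COBL9 changed by -3.77 under ABA by the measured signals (limma adjusted p = 0.03716), or at least 3.27-fold lower as a bound. In water COBL9 was 3.13 higher in OE than in WT by the measured signals (limma adjusted p = 0.01302), or at least 3.68-fold as a bound. The root marker NRT2.1 went the other way there, at -1.68 in OE minus WT (limma adjusted p = 0.03241). SULTR1.2 and CASP1 were not called between treatments or genotypes. The part of root content in the results below was not tested. In such bulk samples fewer cells of a type and less RNA per cell cannot be told apart.

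TSPO was bright on every ABA array and dim on every water array. Its brighter probe, A_84_P109472, read 2076 and 1589 intensity units on the OE ABA arrays, against 5.74 and 2.47 on the OE water arrays. On the WT arrays it read 3336 and 5314 under ABA, against 49.1 and 64.7 in water. The groups under ABA and in water did not overlap in either genotype, which goes with the choice of the pair and is no result. The OE water arrays were the only ones on which the spot was not well above background.

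On the normalized log2 scale this probe had 0.66 and 0.48 on the OE ABA arrays, against -7.64 and -8.79 on the OE water arrays. In WT it had 0.97 and 1.73 under ABA, against -4.61 and -4.07 in water. By group mean the order was WT ABA highest, then OE ABA, then WT water, and OE water lowest. The gap between the lower WT ABA array and the higher OE ABA array was small beside the spread of the WT ABA arrays, which averaged 1.35 ± 0.54 (SD, n = 2). OE ABA averaged 0.57 ± 0.13, WT water -4.34 ± 0.38 and OE water -8.21 ± 0.81 (SD, n = 2 each).

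The other TSPO probe, A_84_P863449, gave the same order of the 4 groups. It had -0.32 and -0.58 on the OE ABA arrays, against -8.48 and -8.51 on the OE water arrays, where it was again not well above background. In WT it had 0.15 and 0.91 under ABA, against -5.14 and -4.63 in water. Across the 8 arrays both probes followed each other with r = 0.9971, a value that is set largely by the difference between treatments.

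AT2G47780 was bright under ABA and well above background on all 8 arrays. Its probe, A_84_P257260, read 12130 and 7010 intensity units on the OE ABA arrays, against 204.5 and 266.4 on the OE water arrays. On the WT arrays it read 5789 and 11999 under ABA, against 309.5 and 100.9 in water. ABA and water arrays did not overlap in either genotype, which again goes with the choice of the pair. Under each treatment the range of the OE arrays overlapped that of the WT arrays.

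On the normalized scale AT2G47780 had 3.21 and 2.63 on the OE ABA arrays, against -2.48 and -2.04 on the OE water arrays. In WT it had 1.77 and 2.91 under ABA, against -1.96 and -3.43 in water. Its groups fall into a high ABA level and a low water level, and neither genotype stood apart within a level. OE ABA averaged 2.92 ± 0.41 and OE water -2.26 ± 0.32, with wider spreads in WT, at 2.34 ± 0.81 under ABA and -2.70 ± 1.04 in water (SD, n = 2 each).

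**Figure D1:**
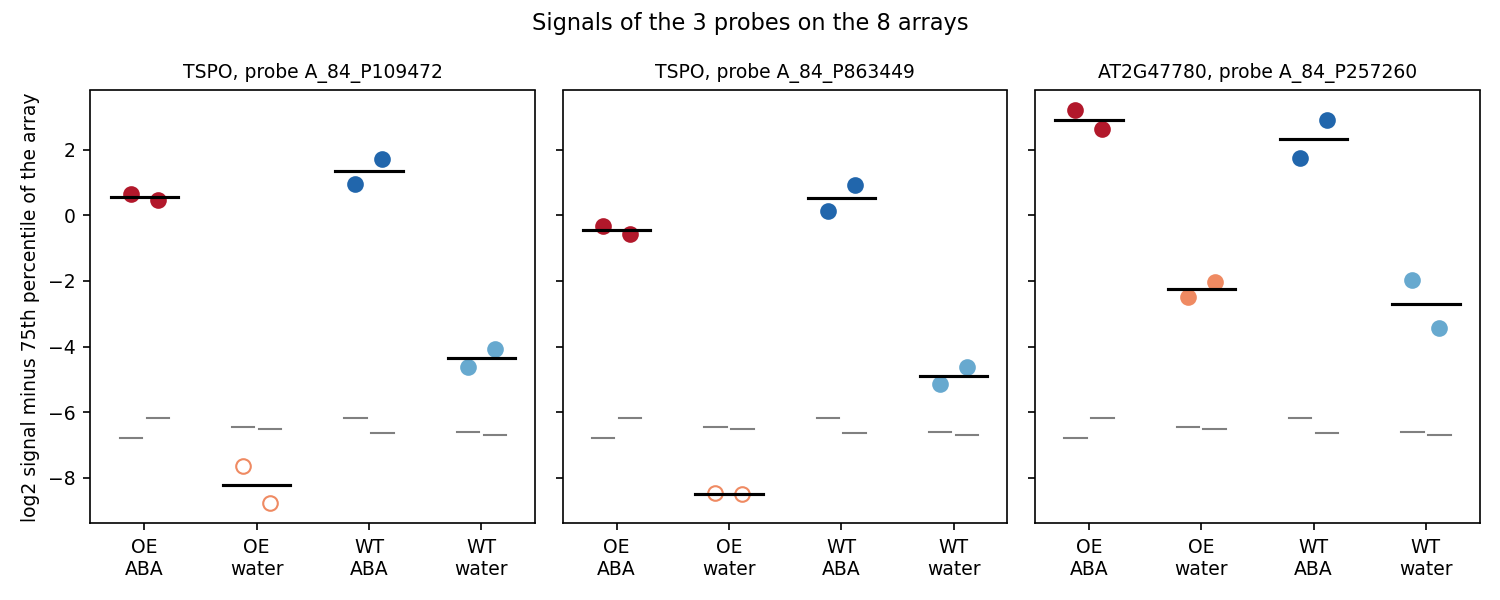
Normalized log2 signal (y axis, log2 intensity minus the 75th percentile of the array) of the 2 TSPO probes and the AT2G47780 probe on each of the 8 arrays, by group on the x axis. Each circle is an array, open where the spot was not well above background, black lines are group means, and the grey dash at each array is the signal of its dimmest probe that was well above background. TSPO had a lower water level in OE than in WT on both probes, while the AT2G47780 water arrays of both genotypes overlapped.

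In OE plants the ABA change of TSPO was 8.79 ± 0.45 on the log2 scale by its brighter probe and 8.05 ± 0.30 by the other (SE of the fit). Since both OE water arrays were not well above background, the change is better stated as a bound. It was at least 133.1-fold by the brighter probe and at least 65.7-fold by the other, computed as the mean of the ABA arrays against the mean of the water arrays, with a water array that was under its dimmest clearly detected probe raised to that probe's signal. Such a bound, here and elsewhere, holds only for the background subtraction used and is not a strict minimum. With normexp background correction the change was 4.93 and 3.84 on the log2 scale, below the bounds of 7.06 and 6.04. In WT plants, where both treatments were measurable, the change was 5.70 ± 0.45, or 51.9-fold, by the brighter probe and 5.42 ± 0.30, or 42.7-fold, by the other.

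AT2G47780 changed by 5.18 ± 0.59 in OE plants and by 5.03 ± 0.59 in WT plants on the log2 scale, which is 36.2-fold and 32.7-fold. The ABA change of TSPO in OE minus that in WT was 3.09 ± 0.63 by the brighter probe and 2.63 ± 0.42 by the other, against 0.14 ± 0.83 for AT2G47780. With the OE water arrays of TSPO set at the bound, that difference was 1.36 and 0.62. With normexp background correction it was 0.16 by the brighter probe and -0.27 by the other, so its size and, for the dimmer probe, its sign rest on the handling of dim signals. These differences are made of the changes that chose the pair and are given without a test.

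Locus tags, each read from its probe of highest mean signal, were ranked by ABA change where both arrays of both groups were well above background, since dim signals have no order. TSPO has no place in OE plants by this rule. In WT plants it was 2nd of 17503, under the phosphatase gene HAI1 at 6.13, and AT2G47780 was next, 3rd at 5.03, above AT3G02480 at 4.84. In OE plants AT2G47780 was 8th of 18238, between AT2G37870 at 5.29 and the dehydrin gene LTI30 at 5.15. With dim signals taken as measured, over all 19467 tested locus tags, TSPO was 6th and AT2G47780 16th in WT plants. In OE plants TSPO was then 1st and AT2G47780 28th. At an adjusted p under 0.05 and a change of at least 2-fold, 1.71% of all 19467 tested locus tags were called higher and 0.416% lower under ABA in OE plants. The shares in WT plants were 0.580% higher and 0.262% lower. Nothing is read from the pair's place among these, since it was chosen for it.

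The difference between OE and WT, averaged over both treatments, is a separate contrast from the changes that chose the pair, and it was tested. It uses the same arrays, among them the dim OE water arrays of TSPO. It is independent of the choice only where the groups have equal spread. For the brighter TSPO probe the SD was 0.81 in OE water and 0.13 in OE ABA, so the test is not free of the choice. TSPO was lower in OE than in WT by both probes, whereas AT2G47780 was not called. The difference for TSPO was -2.32 ± 0.32 on the log2 scale (SE, limma adjusted p = 0.003497), which is 5.01-fold lower in OE, by the brighter probe. By the other probe it was -2.29 ± 0.21 (limma adjusted p = 0.001258). With the OE water arrays at the bound, the difference was -1.46 and -1.29. The call for the brighter probe was lost with normexp background correction, at -0.86 and so under 2-fold (limma adjusted p = 0.0423), and by the other probe likewise, at -0.78. Both calls were also lost under the test of means that the methods name, after adjustment. The difference for AT2G47780 was 0.51 ± 0.42 (limma adjusted p = 0.3572), with a 95% interval of -0.51 to 1.53 that still holds differences of over 2-fold. Of all 31262 probes tested, 17.5% were called in this comparison, in 1 direction or the other, so a call there is not rare, and genotype cannot be told apart from scan day in it.

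Split by treatment, the lower TSPO signal of OE plants was called in water and not under ABA. These values come from the same fit but share their arrays with the choice of the pair, so their adjusted p values are not free of it. In water they also rest on OE spots that were not well above background for either probe. In water the difference was -3.87 ± 0.45 by the brighter probe (limma adjusted p = 0.00426) and -3.61 ± 0.30 by the other (limma adjusted p = 0.002228). As a bound under the background subtraction used, WT water was at least 4.40-fold above OE water by the brighter probe and at least 3.02-fold by the other. Under ABA the differences were -0.78 ± 0.45 (limma adjusted p = 0.2654) and -0.98 ± 0.30 (limma adjusted p = 0.07666). The call in water was lost with normexp background correction, at -0.93 (limma adjusted p = 0.117) and -0.65 (limma adjusted p = 0.27), and for both probes under the test of means that the methods name. That the call was made in water and not under ABA was not tested as a difference.

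AT2G47780 differed by 0.58 ± 0.59 under ABA (limma adjusted p = 0.5206) and by 0.44 ± 0.59 in water (limma adjusted p = 0.5979). Over all probes, the share called in either direction was 10.3% under ABA and 19.0% in water.

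**Figure D2:**
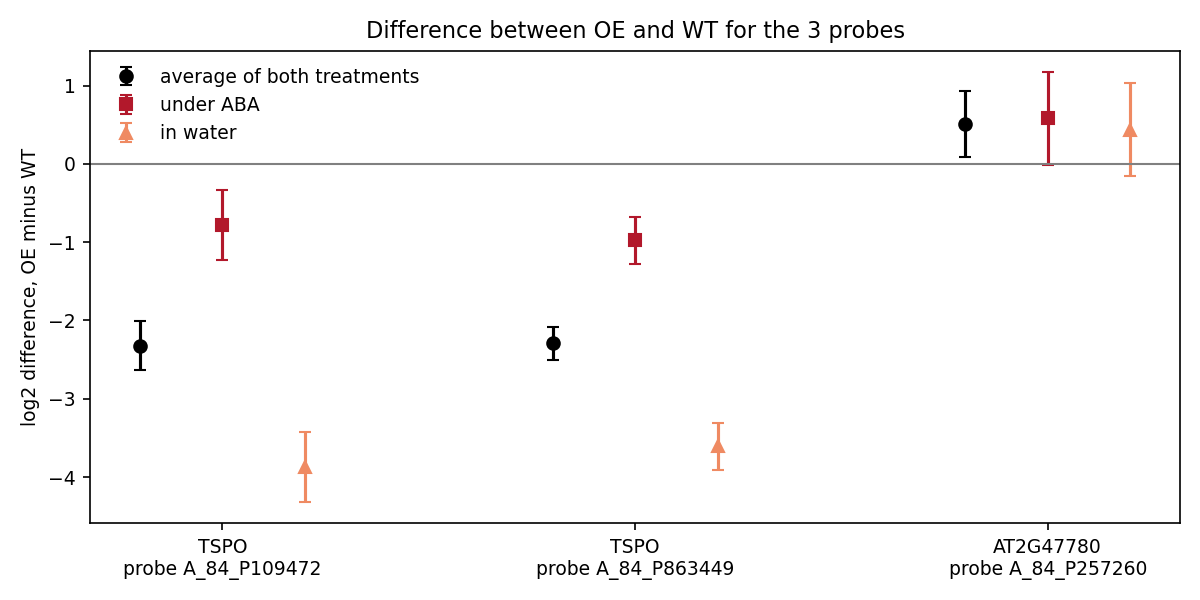
Log2 difference, OE minus WT (y axis), of the 3 probes of the pair, averaged over both treatments, under ABA and in water, with bars of 1 SE of the fit over 8 arrays. Both TSPO probes lie below 0, furthest in water at -3.87 and -3.61, where the OE spots were not well above background, and the AT2G47780 values lie between 0.44 and 0.58.

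Whether TSPO and AT2G47780 differ from each other in this was examined within arrays, by the log2 signal of TSPO minus that of AT2G47780 on the same array. Averaged over treatments, this gap in OE minus that in WT was -2.83 with the brighter TSPO probe and -2.80 with the other. In water the difference of the gap was -4.30 and -4.04, and under ABA -1.36 and -1.56. With the OE water arrays of TSPO at the bound, the averages were -1.97 and -1.79, and the values in water -2.57 and -2.03. An exact permutation test, two-sided, that exchanged arrays between genotypes within each treatment gave p = 0.0556 for either probe. This is the smallest p that the 36 arrangements allow, so the design cannot reach 0.05. The test was added after the values were seen and rests on the dim OE water arrays of TSPO. It cannot tell genotype from scan day, and nothing is concluded from it. With normexp background correction the averaged OE minus WT differences were -0.86 and -0.78 for the TSPO probes and 0.35 for AT2G47780.

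Of 16 genes within 8 positions to either side, 12 had a tested probe, and their median ABA change was 0.14 in OE plants and 0.08 in WT plants. On the side of TSPO, the position next to it is taken by the noncoding RNA gene AT2G09965, which has no probe, and the next protein-coding gene is ALG3, a mannosyltransferase gene of N-glycan assembly. ALG3 changed by 0.13 in OE plants (limma adjusted p = 0.7553) and by -0.21 in WT plants (limma adjusted p = 0.5871). On the side of AT2G47780, the next gene is AT2G47790, whose gene model overlaps that of AT2G47780 in the table. AT2G47790 changed by -0.14 in OE plants (limma adjusted p = 0.7843) and by -0.34 in WT plants (limma adjusted p = 0.4678), and was not called in either.

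Further out, 3 of the 12 were called under ABA in 1 genotype, which is 1 higher and 1 lower in OE, beside 1.71% and 0.416% of all locus tags, and 1 higher in WT, beside 0.580%. NF-YB5, a subunit gene of the NF-Y transcription factor that lies 3 positions beyond AT2G47780, had -2.93 and -2.27 on the OE ABA arrays, against -4.88 and -5.22 on the OE water arrays. In WT it had -2.96 and -2.93 under ABA, against -7.16 and -8.92 in water, where it was not well above background. The ABA arrays were above the water arrays in both genotypes, and how often probes separate so on 2 arrays a side was not counted. The change was called in WT, at 5.10 ± 0.56 (SE, limma adjusted p = 0.02826) and at least 13.1-fold as a bound, while the value in OE was 2.45 ± 0.56 (limma adjusted p = 0.1058).

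Between genotypes the values of NF-YB5 lay on the other side from those of TSPO. In water it was 2.99 higher in OE than in WT by the measured signals (limma adjusted p = 0.01425), or at least 3.03-fold as an untested bound. Averaged over treatments, it was called higher in OE by the measured signals, at 1.67 (limma adjusted p = 0.0197), but with the WT water arrays at the bound the average was 0.97, under 2-fold. The only other of the 12 called in that average was AT2G47850, at 1.05 (limma adjusted p = 0.0015), which with NF-YB5 makes 2 higher and 0 lower, beside 17.5% of all probes called in either direction.

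On the side of TSPO, AT2G47720 had -2.82 and -2.82 on the OE ABA arrays, against -4.54 and -4.83 on the OE water arrays. It rose in OE plants by 1.87 (limma adjusted p = 0.008267), and in WT plants its value was 1.11 (limma adjusted p = 0.05343). GH3.9, which encodes an enzyme of the family that conjugates auxin and other acids to amino acids, fell by 1.73 in OE plants (limma adjusted p = 0.03584). Its value in WT plants was 0.32 (limma adjusted p = 0.5891). The other 9, among them GSTF8, ABCC4 and Tic20-II, were not called under ABA in either genotype.

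**Figure D3:**
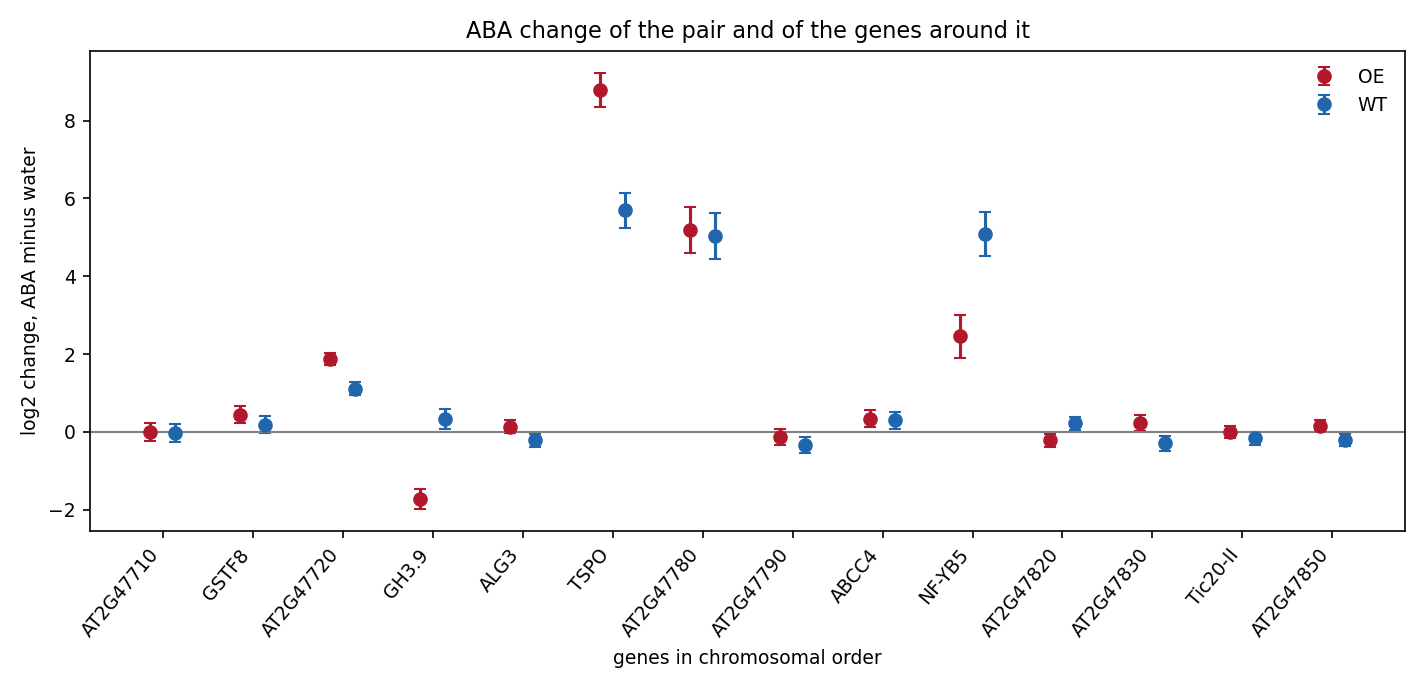
Log2 change, ABA minus water (y axis), in OE and WT plants for TSPO, AT2G47780 and the 12 neighbours with a tested probe, placed in chromosomal order on the x axis and not to distance, with bars of 1 SE of the fit. Apart from the pair, which was chosen for its rise, NF-YB5 has the largest change of the 12 in either genotype, at 2.45 in OE and 5.10 in WT. The TSPO point in OE and the NF-YB5 point in WT rest on water signals that were not well above background.

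The 5 genes most like TSPO over the 8 arrays and the 5 most like AT2G47780 are described here. Likeness was the Pearson correlation of the normalized signal with that of each of 18685 locus tags with a value on every array, and since the arrays share 2 treatments it follows the ABA change for the most part. Dim signals entered it as measured. For TSPO the closest were ACS2, which encodes an ACC synthase of ethylene synthesis, with r = 0.9927, and GBF3, a G-box binding bZIP factor, with r = 0.991. They were followed by AFP1, which encodes an ABI5-binding protein that dampens ABA signalling, with r = 0.9891, AT1G55760 with r = 0.9887, and POP2, the GABA transaminase, with r = 0.9868. AT2G47780 was 292nd in this ranking, with r = 0.8788.

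These 5 were picked for following TSPO over the same arrays, so a shared pattern comes from the choice and is no result. All of these 5 had a higher ABA change in OE than in WT, the side to which TSPO lies. ACS2 changed by 4.77 in OE plants, where water was not well above background and the bound was at least 8.78-fold, and by 3.1 in WT plants. The changes were 3.94 in OE and 2.02 in WT for GBF3, and 6.06 in OE and 4.02 in WT for AFP1. Those of AT1G55760 were 1.97 in OE and 1.55 in WT, and those of POP2 0.75 in OE and 0.39 in WT. In water the values of all 5 were lower in OE than in WT. The log2 difference lay between -1.96 for GBF3 and -0.42 for POP2 among the 4 measured in both genotypes, and WT was at least 1.45-fold above OE for ACS2.

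For AT2G47780 the closest were AT5G56160 with r = 0.988, AT3G17520 with r = 0.9875, SPL7, the copper-response factor, with r = 0.9873, MYB121, an R2R3-MYB factor, with r = 0.9856, and ICS2, an isochorismate synthase gene, with r = 0.9835. TSPO was 265th. AT3G17520 changed by 6.48 in OE and 6.46 in WT, with water not well above background and bounds of at least 22.2-fold in OE and 20.4-fold in WT. MYB121 changed by 5.65 in OE and 6.02 in WT, with bounds of at least 13.1-fold in OE and 14.8-fold in WT. The other 3 had smaller changes, of 1.11 in OE and 1.06 in WT for AT5G56160, 0.67 in OE and 0.69 in WT for SPL7, and 2.75 in OE and 1.96 in WT for ICS2. In water the OE minus WT differences of the 3 that were measured there lay between -0.27 for ICS2 and 0.12 for SPL7, while AT3G17520 and MYB121 were not well above background in water in either genotype and have no such difference. These genes were picked by their likeness, so none of these values is tested here.

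Part of the listed genes of the ABA response were also called higher under ABA. Of 23 ABA marker genes listed, 22 had a tested probe, and 16 rose and 0 fell in OE plants, with a median change of 3.25 beside -0.06 over all locus tags. In WT plants 11 rose and 0 fell, with a median of 2.07 beside -0.05. These shares, 16 and 11 of 22, stand against 1.71% and 0.580% of all locus tags called higher. The counts rest on single arrays. In OE the count was 7 without the first OE water array, 3 without the second, and 10 without either OE ABA array. In WT it was 3 without the first WT ABA array, 1 without the second, and 6 without either OE water array, and it was 0 when the WT arrays alone were fitted.

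The PP2C phosphatase gene HAI1, a brake of ABA signalling, rose by 6.0 in OE plants (limma adjusted p = 0.006469) and by 6.13 in WT plants (limma adjusted p = 0.01221). AFP1 rose by 6.06 in OE (limma adjusted p = 0.002314) and by 4.02 in WT (limma adjusted p = 0.007252). LEA4-5, a gene of the late embryogenesis abundant proteins that protect cells from drying, rose by at least 14.9-fold in OE (limma adjusted p = 0.01162) and was called higher in WT too, at 4.13 on the log2 scale (limma adjusted p = 0.04259), with only 1 of 2 WT water arrays well above background. RD29B, named LTI65 in the table and a classic ABA reporter, rose by at least 3.74-fold in OE (limma adjusted p = 0.01829) and by at least 11.9-fold in WT (limma adjusted p = 0.01499). A second phosphatase gene, HAI2, was called higher at 5.73 in OE (limma adjusted p = 0.02193), with 1 of 2 OE water arrays well above background, and had 4.36 in WT (limma adjusted p = 0.06429).

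Of these 22 markers, 5 were lower and 1 higher in OE than in WT averaged over treatments, with a median difference of -0.59 beside 0.07 over all locus tags. In water 6 were lower and 0 higher, with a median of -0.98 beside 0.06. These counts, 6 of 22 each, stand beside 19.0% of all probes called in water and 17.5% on average, so the number called is near the background. LTI30, a dehydrin gene, was lower in OE in water by -3.74 (limma adjusted p = 0.004969), measured on all arrays. RD26, a NAC factor gene, differed by -3.1 there (limma adjusted p = 0.003497). COR15B, a chloroplast stress protein gene, was the 1 higher in OE on average, by 1.90 (limma adjusted p = 0.002028).

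None of 31 tetrapyrrole genes, which make or break down haem and chlorophyll, was called under ABA in either genotype. Their median change was -0.48 in OE plants and 0.20 in WT plants, beside -0.06 and -0.05 over all locus tags. Of the 31, 1 had a change above 0 in OE plants and 25 in WT plants, which was not tested. None of 15 autophagy genes was called, with medians of 0.26 in OE and -0.04 in WT. None of the 8 PIP2 aquaporin genes was called either, with medians of 0.10 in OE and 0.24 in WT. PIP2;7, named PIP3 in the table, changed by -0.22 in OE and by 1.01 in WT and was not called. With so few of all locus tags called, 1.71% higher and 0.416% lower in OE and 0.580% and 0.262% in WT, counts of 0 in lists of this size are near the background.

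Of 27 lipid droplet genes listed, 20 had a tested probe. In OE plants 2 rose and 0 fell, with a median of 0.20, and in WT plants 0 were called, with a median of -0.12. The medians over all locus tags were -0.06 and -0.05, and 1.71% of all locus tags were called higher in OE and 0.580% in WT. Those that rose in OE were RD20, which encodes a caleosin of the droplet surface, by 3.28 (limma adjusted p = 0.04556), and AT1G67360, by 1.37 (limma adjusted p = 0.02022). In WT their values were 2.21 (limma adjusted p = 0.1419) and 0.95 (limma adjusted p = 0.07183). AT3G05500 had 0.03 in OE (limma adjusted p = 0.9238) and -0.15 in WT (limma adjusted p = 0.6142).

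**Figure D4:**
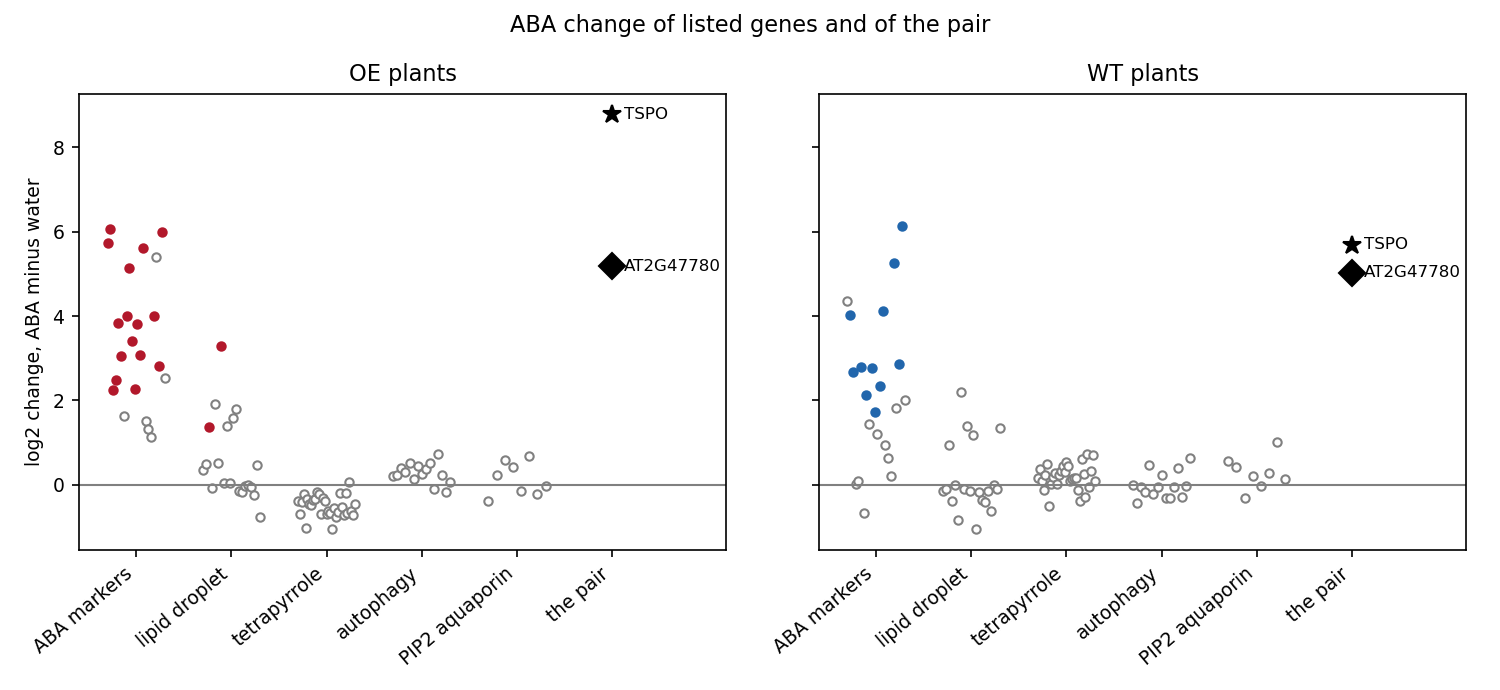
Log2 change, ABA minus water (y axis), of each tested gene of 5 lists and of the pair (black star and diamond), in OE plants on the left and WT plants on the right. Filled points are genes called at an adjusted p under 0.05 and at least 2-fold, 16 of 22 ABA markers in OE and 11 of 22 in WT, and open points are genes not called, including all tetrapyrrole, autophagy and PIP2 genes. TSPO lies above every listed gene in OE at 8.79, or 7.06 with its water arrays at the bound, and in WT below HAI1 at 6.13.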

How the data were processed

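The authors deposited each array's scanner output (Agilent Feature Extraction 10.7.3.1), whose processed intensity of every spot is background-subtracted, and a series table of log2 values. Set against the scanner output, the deposited log2 table follows it with r of 0.9995 to 0.9999, every column having a median of 7.585, so it is neither centred nor a ratio. The methods do not settle its scaling for these arrays.

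Processed intensities were taken to log2 and the 75th percentile of the array was subtracted. Outlier spots and control spots were left out. Of 43603 gene probes, the 31262 that were clearly detected in 1 group or more, on both its arrays, were tested, and 1151 of them were missing on some array. The fit used limma 3.58.1 under R 4.3.3, with lmFit for 4 group means over 8 arrays and eBayes (residual degrees of freedom 4, prior 1.99), and Benjamini-Hochberg adjustment over all tested probes. A call needed an adjusted p under 0.05 and at least 2-fold. Transcript accessions of 34348 probes (78.8%) matched 25410 locus tags of the RefSeq table of TAIR10.1, used for names and gene order only, since the array headers name the build otherwise. No coordinates or sequences are given. Between the 2 design versions 208 probes had another systematic name, none of them a probe of the pair. The fit was tested on simulated data.

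The pair, the gene lists and the named genes were chosen with earlier results of these data known. Named were all probes of the pair, genes within 8 positions with a tested probe, the 5 locus tags most like each gene, the called genes of each list (up to 4 with the largest change), PIP2;7, AT1G67360 and AT3G05500. LTI30, RD26, COR15B, COBL9 and the genes next in rank to the pair were named after their values were seen, and the test of the gap between the pair was added then. Where a gene had several probes, the one of highest mean signal stood for it. Alternatives changed the normalization, background correction, dim filter, arrays fitted, blocks (replicate number, slide) and test, and left out each array. The number of arrays limits the precision.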

Additional observations from a re-analysis of the deposited data

How the results depend on the processing

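With 2 arrays per group the ABA changes kept their direction under every alternative that gave a value. These changes chose the pair on the same arrays, so this describes the processing and is no support for a rise. Leaving out each array in turn, TSPO ranged from 8.21 to 9.36 in OE and from 5.31 to 6.08 in WT, AT2G47780 from 4.88 to 5.47 in OE and from 4.30 to 5.77 in WT, and the averaged OE minus WT difference from -2.61 to -2.04 for TSPO, always called, and from 0.14 to 0.88 for AT2G47780. Probes called ranged from 19 to 618 (ABA in OE, 639 with all arrays), 8 to 200 (ABA in WT, 251) and 4642 to 5619 (OE against WT, 5482). Background correction by normexp, on the median spot signal, adds an offset of 50 and so shortens changes of dim spots. TSPO then changed by 4.93 in OE and 4.78 in WT, AT2G47780 by 4.69 in OE, and OE minus WT for TSPO was -0.86, under 2-fold (limma adjusted p = 0.0423). In water it was -0.93 (limma adjusted p = 0.117), and the difference between the ABA changes was 0.16, turning to -0.27 for the dimmer TSPO probe. Calls were 114 in OE, 28 in WT and 2540 between genotypes. With no dim filter 281 were called in OE and 88 in WT, and with only the compared groups fitted 250 in OE and 0 in WT. Slide as a fixed block gave 310 in OE and could not be fitted in WT, and as a random block, added after seeing the data, 527 in WT. Under the methods' t-test the TSPO difference of -2.32 was not called after Benjamini-Hochberg adjustment (adjusted p = 0.117), nor was that of the other probe, nor either in water (adjusted p = 0.312 and 0.31). Replicate numbers did not pair the arrays (correlations of deviations from -0.178 to 0.113). The replicate block left the TSPO difference at -2.32 and gave 335 calls in OE and 83 in WT. Probes above background on all 8 arrays leave out TSPO.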
